A study of Mus musculus with 70 samples.

Results

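The genes described here encode the machinery of oxidative phosphorylation, the set of protein complexes by which mitochondria turn the electrons of fuel into ATP. They were chosen by name alone: a protein-coding gene belonged if its mouse symbol began with Nduf, Sdha, Sdhb, Sdhc, Sdhd, Uqcr, Cox4i, Cox5, Cox6, Cox7, Cox8, Atp5, mt-Nd, mt-Co, mt-Cytb or mt-Atp. The rule took 110 of the 21865 protein-coding genes in the count table, 97 of them in nuclear chromosomes and 13 in mitochondrial DNA, and it used no measured value. The name "subunits" covers most but not all of them, since the prefixes also took 8 assembly factors of complex I (Ndufaf1 to Ndufaf8), 4 of complex II (Sdhaf1 to Sdhaf4) and the coupling factor gene Atp5s, which are given apart below. Another 13 genes with such symbols are pseudogenes or non-coding and were left out.

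Regulatory T cells (Tregs) were sorted from 5 male Foxp3YFP-cre mice (allele Foxp3tm4(YFP/icre)Ayr on a B6 background) aged 16.6 to 18.6 weeks, in which a YFP and Cre fusion is made from the Foxp3 locus, so that YFP marks cells that use Foxp3, the defining transcription factor of Tregs. No floxed allele and no treatment is named, and all groups share this one genotype. ST2+ CD44hi Tregs, which carry the IL-33 receptor chain ST2, and ST2- CD44hi Tregs were taken from blood, spleen, lungs, visceral adipose tissue (VAT), colon and back skin, and ST2- CD44lo CD62L+ Tregs, which have a resting surface phenotype, from spleen and lungs. The design sets Tregs with and without ST2 side by side within and between tissues, in 14 groups of 5 mice and 70 libraries, each made from a sort of 220 cells or, in 7 of those kept, fewer. These were 4 of the 5 VAT ST2- sorts (93, 118, 135 and 192 cells), 2 of blood ST2+ (55 and 202) and 1 of blood ST2- (166). The 67 libraries with more than 1000000 counts were used, with total counts from 1304560 to 2759926 (median 2039002), which leaves 4 mice in the blood ST2+ group, 3 in the colon ST2+ group and 5 in each other group. To look at the Treg label, 10 Treg and T cell markers, Foxp3 among them, were summed. They gave 4069 to 5094 counts per 1000000 (CPM) in the 10 spleen CD44hi libraries and 4564 to 6899 CPM in the 10 skin libraries. Such a sum does not show each marker, and it is given for these 2 tissues only.

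Complex I (NADH dehydrogenase) and complex II (succinate dehydrogenase, also an enzyme of the tricarboxylic acid cycle) pass electrons to ubiquinone, complex III hands them to cytochrome c, and complex IV passes them to oxygen. Complexes I, III and IV pump protons across the inner mitochondrial membrane, and complex V, the ATP synthase, lets them flow back to make ATP. Complexes I, III, IV and V are mosaics of proteins made from nuclear and from mitochondrial genes, whereas complex II is nuclear throughout, and Tregs are known for a metabolism that leans on this pathway.

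The nuclear members are spread over many chromosomes, and short promoter motifs recur among them. RefSeq promoter windows, from 250 bases before to 50 after the annotated start on the GRCm38.p6 build, were matched by symbol for 80 of them. The letters GCGCA and GCGC with 1 base of any kind between them, a core of the motif bound by NRF1, stood on either strand in 20 of these 80 windows (25%), against 10.2% of the 10503 windows of tested genes and 4.78% of all 27025 windows. The YY1 letters AAGATGGC stood in 10 (12.5%, against 4.53% and 2.88%), and 7 of those 10 were among the 32 windows of complex I subunits. The ETS letters CCGGAAGT stood in 5 windows (6.25%, against 8.17% and 4%) and the SP1 letters GGGGCGGGG in 13 (16.2%, against 21.5% and 11.6%). Where a gene had several windows, members were given the one nearest their annotated start, and the comparison sets the first one listed. The shares thus rest on windows chosen by unlike rules. No overlap between motifs was removed, and a match describes letters in a window, not a bound site. These 4 windows are shown because they belong to genes that moved in opposite directions in skin and hold the NRF1 or the YY1 letters, with the motif letters in capitals on the strand of the gene. Ndufs7, Sdha and Sdhaf4 were lower in skin Tregs and Cox6a1 was higher, the last call being lost in a fit with total counts as a covariate. The Ndufs7 window is chr10:80249199-80249498 (plus strand) with a YY1 match, the Sdha window chr13:74350191-74350490 (minus strand), the Sdhaf4 window chr1:24005591-24005890 (minus strand) and the Cox6a1 window chr5:115348909-115349208 (minus strand), each with an NRF1 match.
Ndufs7: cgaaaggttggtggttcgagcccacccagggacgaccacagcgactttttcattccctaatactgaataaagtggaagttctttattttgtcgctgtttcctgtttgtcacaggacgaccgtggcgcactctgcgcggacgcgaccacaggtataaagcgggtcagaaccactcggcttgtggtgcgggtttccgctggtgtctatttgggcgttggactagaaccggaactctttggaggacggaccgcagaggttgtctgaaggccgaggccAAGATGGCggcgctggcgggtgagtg
Sdha: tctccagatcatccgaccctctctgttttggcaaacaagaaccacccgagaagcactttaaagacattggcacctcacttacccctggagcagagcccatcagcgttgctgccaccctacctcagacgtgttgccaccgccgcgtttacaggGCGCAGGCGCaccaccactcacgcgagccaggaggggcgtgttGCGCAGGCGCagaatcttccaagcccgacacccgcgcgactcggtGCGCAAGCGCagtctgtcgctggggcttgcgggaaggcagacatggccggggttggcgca
Sdhaf4: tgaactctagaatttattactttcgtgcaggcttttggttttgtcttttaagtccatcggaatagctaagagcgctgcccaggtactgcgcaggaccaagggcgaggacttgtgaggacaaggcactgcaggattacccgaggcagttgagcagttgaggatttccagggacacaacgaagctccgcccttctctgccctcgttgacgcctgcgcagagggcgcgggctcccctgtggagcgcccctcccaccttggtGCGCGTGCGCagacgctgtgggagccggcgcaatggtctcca
Cox6a1: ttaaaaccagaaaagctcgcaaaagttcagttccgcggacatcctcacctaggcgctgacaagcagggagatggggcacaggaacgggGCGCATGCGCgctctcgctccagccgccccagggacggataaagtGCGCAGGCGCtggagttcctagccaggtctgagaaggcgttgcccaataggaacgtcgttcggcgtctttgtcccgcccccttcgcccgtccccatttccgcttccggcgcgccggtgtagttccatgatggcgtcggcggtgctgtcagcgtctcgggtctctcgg
Because these windows were picked for their letters and for the directions of their genes, they cannot show whether a motif goes with direction. That was not tested over the 80 windows.

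Of the 97 nuclear members 94 reached at least 1 CPM in 10% of libraries and were tested. The 3 that did not are Cox7b2, Cox8b and Cox8c, which are known as forms of complex IV subunits outside lymphoid cells. Nuclear members together took 0.824% to 1.51% of all counts in a library (median 1.14%). On a scale of CPM per kilobase of transcript, which allows levels to be compared between genes, the highest means over the 67 libraries were those of Atp5b (427), which encodes the catalytic beta subunit of ATP synthase, Atp5g3 (340), Cox4i1 (333), Cox6a1 (314) and Atp5a1 (282), the alpha subunit. The genes of the membrane ring of ATP synthase, Atp5g3, Atp5g1 and Atp5g2, which encode the same mature c subunit, were unequal in counts. In spleen CD44hi Tregs Atp5g3 ran from 185 to 256 CPM, Atp5g1 from 5.68 to 17.8 CPM and Atp5g2 from 0.435 to 3.32 CPM. Atp5g2 shares 37.5% of its 58-base windows, the length of a read, with other annotated transcripts, which leaves its count uncertain. The same limit touched 10 nuclear members with more than 30% of windows shared, Atp5l the most (83.6%), while 76 of the 97 shared at most 10%.

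The 13 mitochondrially encoded members were read unequally. Only 8 were tested, and mt-Co2, mt-Co3, mt-Atp6, mt-Atp8 and mt-Nd4l, which encode subunits of complexes IV, V and I, were at or near 0 in every library. For 4 of those 5, between 98.75% (mt-Nd4l) and 100% (mt-Co2) of the 58-base windows also occur in nuclear pseudogenes. The copies lie side by side on chromosome 1 of GRCm38, among them Gm28661 (chr1:24614885-24615565), the copy of mt-Co2, and were themselves given between 0 and 5 counts over the 67 libraries. For mt-Nd3, with 97.9% of windows shared, the mean level was 5.95 CPM per kilobase. For mt-Cytb and mt-Nd1, with 0% shared, it was 646 and 575. Between these lay mt-Nd4 with 62.0% of windows shared and 194 CPM per kilobase, and mt-Co1 with 47.4% and 385. By this measure mt-Atp8 stood apart, with 0% of windows shared but 0 counts in all 67 libraries. The measure covered annotated transcripts only, so a copy outside them would not be seen. mt-Atp8 lies between mt-Co2 and mt-Atp6, which it overlaps in part. The copies of these neighbours leave a gap on chromosome 1, that of mt-Atp6 being Gm10925 (chr1:24613974-24614651). Whether the gap holds a copy of mt-Atp8 was not tested. A level of 0 for these genes cannot be read as absence from the cells, and a sum over mitochondrial members covers the readable genes only. By that sum the 13 members took 0.246% to 0.492% of the counts of a library (median 0.304%).

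The main differences lay between tissues. Each of the 5 other tissues was compared with spleen in CD44hi Tregs, as the mean of the ST2+ and the ST2- difference, and a gene was called at an adjusted p below 0.05 over 13173 tested genes. Because all 5 comparisons share the spleen libraries, their values are given side by side. A test of any difference among the 6 tissues called 75 of the 94 nuclear members and 7 of the 8 mitochondrial ones, where 67.2% of all tested genes were called. The nuclear count was 48 to 77 when 1 mouse was left out, lowest without mouse FK7700, and the mitochondrial count was 3 to 7, lowest without FK7698. In bulk libraries such as these, fewer cells of a type and less RNA per cell cannot be told apart. Preparation also differed by tissue. Per the study's methods, lungs, VAT, colon and skin were digested with collagenase, skin for the longest time, and blood and spleen were not. CD4+ T cells were enriched before the sort for spleen and lungs only. Tissue and preparation therefore cannot be told apart in these comparisons.

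Library depth also moved with tissue. The mean total was 2341304 counts in the spleen CD44hi libraries, the highest of the 6 tissues, and 2045008 in VAT, 2026440 in lungs, 1951938 in blood, 1843229 in skin and 1807947 in colon. In all 12 CD44hi groups the library with the fewest counts gave a higher share to mitochondrially encoded members than the library with the most, for example 0.442% against 0.261% in VAT ST2+. The 3 libraries left out for low counts gave them 0.977% to 1.65%. A fit with the log2 total counts as a covariate was therefore added after the data had been seen, and its values stand below beside the results they change.

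Skin had the most calls. There 39 of 94 nuclear members were lower than in spleen (24.6% of all tested genes were called lower) and 13 were higher (25.9% of all were called higher), with a median log2 difference of -0.15 against -0.02 for all genes. Nuclear members as a whole took 0.824% to 1.05% of counts in the 10 skin libraries (mean 0.925% ± 0.0839, SD) and 1.04% to 1.22% in the 10 spleen libraries (1.15% ± 0.0462), ranges that met at one end. The lowest of the 6 tissue means was in skin for 57 of the 94 (60.6%, against 29.7% of all tested genes). The direction of the calls differed by complex, a difference that was not itself tested. Of the 52 tested subunits and assembly factors of complexes I and II, 35 were lower in skin and 1 was higher, and of the 41 subunits of complexes III, IV and V, 3 were lower and 12 higher, the last near the share of all genes. In the fit with total counts as a covariate 54 of the 94 were lower and 4 higher. In it 41 of the 52 were lower and 0 higher, and of the 41 subunits 12 were lower and 4 higher, so the first count held and the second changed its balance (all genes: 21.8% lower and 22.5% higher). Leaving out any 1 mouse kept the first count of lower genes between 27 and 32 of 52 and the second count of higher genes between 9 and 12 of 41. Without the 5 libraries outside colon that held more than 100 CPM of fibroblast and endothelial markers (Pecam1 not counted), 30 of 52 were lower and 9 of 41 higher. The sets differed in role. The 52 include 8 assembly factors of complex I, all lower in skin, and 4 of complex II. The 41 are subunits only, and Atp5s is in neither set. The sets also differed in transcript length, with a median of 1080.5 bases for the 52 genes and 731 bases for the 41. Over the 94 nuclear members, length and the skin difference had a Spearman rho of -0.446. The parts of role and of transcript length in the split by complex were not tested.

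**Figure D1:**
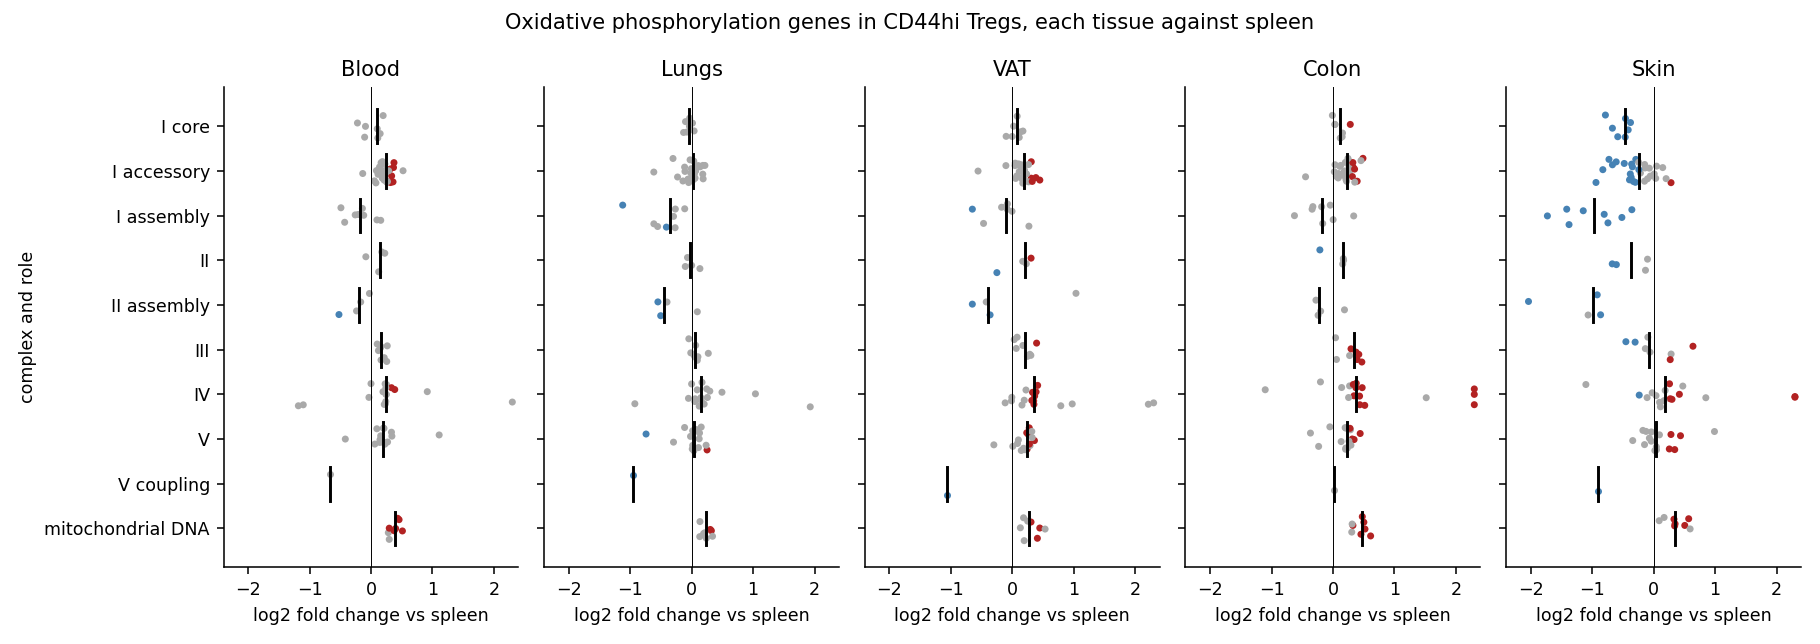
Log2 difference from spleen of each tested gene (point) by complex, for CD44hi Tregs of 5 tissues in 5 panels, with red for called higher, blue for called lower, grey for not called and a black bar for the median of the row; values beyond 2.3 are drawn at the edge. In skin the points of complexes I and II and of their assembly factors lie mostly below 0, and those of complex IV and of mitochondrial DNA mostly above.

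All 7 tested core subunits of complex I, which hold its flavin and iron-sulphur clusters, were lower in skin, with a median log2 difference of -0.46. For Ndufs7, the subunit with the last iron-sulphur cluster before ubiquinone, the lowest, median and highest values were 68.9, 104 and 142 CPM in skin and 157, 178 and 197 CPM in spleen. The groups did not overlap, and in each of the 10 same-mouse pairs skin was the lower. Pairs between tissues come from 5 mice, with ST2+ and ST2- libraries paired apart, so they are not independent. The log2 difference of Ndufs7 was -0.78 (SE 0.10, adjusted p = 3.4e-09), while blood, lungs, VAT and colon ranged from -0.04 in lungs to 0.20 in blood and were not called. The skin difference of Ndufs7 with total counts as a covariate was -0.93 (adjusted p = 2.12e-11). Ndufs8, another iron-sulphur subunit, gave 57.4, 92.5 and 120 CPM in skin and 126, 149 and 157 CPM in spleen, again without overlap (-0.67, SE 0.10, adjusted p = 1.64e-07). The difference was smaller and the ranges overlapped for Ndufv1, the flavin-binding NADH site, with 69.2, 137 and 172 CPM in skin and 150, 185 and 233 CPM in spleen (-0.46, SE 0.11, adjusted p = 0.000412). Ndufs1, the largest core subunit, was lower in 7 of 10 pairs only (-0.38, SE 0.13, adjusted p = 0.0134).

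The accessory subunits, which surround and stabilise the core of complex I, moved less evenly. Of 29 tested, 15 were lower in skin and 1 higher, with a median of -0.24. Ndufc2, a membrane-arm subunit, gave 39.1, 52.1 and 62.6 CPM in skin and 70.6, 82.9 and 94.2 CPM in spleen, with no overlap (-0.73, SE 0.11, adjusted p = 2.65e-07). Ndufa1, a small membrane-arm subunit, was the one called higher (0.28, adjusted p = 0.0336), though not with total counts as a covariate (-0.01, adjusted p = 0.987). Ndufb3 was outside the naming rule and is given because all 10 skin libraries lay below all 47 CD44hi libraries of other tissues. Its values were 32.2, 45.2 and 52.6 CPM in skin and 60.6, 69.7 and 76.2 CPM in spleen. Only Ndufb3, Ndufs7 and Sdhaf4 had this full separation, 3 of 94 members (3.19%), where 0.539% of all tested genes did; no member lay wholly above the other tissues, where 1.56% of all genes did.

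The assembly factors of complex I, which build the complex and then leave it, were all lower in skin, 8 of 8, with a median log2 difference of -0.97. Averaged over the 8 genes, skin libraries lay 0.69 to 1.56 below the spleen mean on the log2 scale (mean -1.10 ± 0.31, SD, n = 10). Ndufaf1, an early assembly factor of the membrane arm, gave 9.04, 24 and 45.6 CPM in skin and 48.7, 61 and 85 CPM in spleen (-1.41, SE 0.25, adjusted p = 3.29e-06). It was called lower in lungs too (10.4, 27.8 and 56.1 CPM; -1.12, adjusted p = 0.00061) and in VAT (-0.65, adjusted p = 0.0449), where the call was lost in 8 of the alternative analyses.

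Complex II and its assembly factors gave the 2 lowest adjusted p-values among members in skin against spleen, those of Sdhaf4 and Sdha. Sdha, the flavoprotein that oxidises succinate, gave 259, 296 and 428 CPM in skin and 429, 498 and 555 CPM in spleen, so that the highest skin library lay just under the lowest spleen library. Its log2 difference was -0.67 (SE 0.07, adjusted p = 8e-12), and it was called lower in VAT (295, 440 and 497 CPM; -0.25, adjusted p = 0.00742) and in colon (373, 447 and 474 CPM; -0.21, adjusted p = 0.0355), where the ranges overlapped that of spleen. Each same-mouse pair was lower, 10 of 10 in VAT and 8 of 8 in colon. The VAT call was lost without mouse FK7700 (adjusted p = 0.07), and the colon call with total counts as a covariate (0.172) and without FK7698 (0.138), FK7699 (0.182) or FK7700 (0.094). The other 3 subunits did not share one pattern. Sdhb, the iron-sulphur subunit, gave 168, 206 and 270 CPM in skin and 209, 228 and 259 CPM in spleen, a difference that was not called (-0.10, SE 0.08, adjusted p = 0.305). Sdhb was called higher in VAT (median 276, highest 367 CPM; 0.31, SE 0.08, adjusted p = 0.00297), where Sdha was lower, though not without mouse FK7700 (adjusted p = 0.071). The membrane anchors were outside the naming rule. Sdhc was lower in skin (-0.61, SE 0.14, adjusted p = 0.000377), and for Sdhd the difference was not called (-0.13, adjusted p = 0.25).

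Sdhaf4, which guards the flavinylated Sdha protein before assembly, had the largest difference among members with a mean of at least 5 CPM in spleen. It gave 5.08, 9.31 and 15.4 CPM in skin and 33, 39.1 and 43.3 CPM in spleen, 4.10-fold lower (log2 -2.04, SE 0.19, adjusted p = 1.51e-13), and no skin library reached any library of spleen. In lungs, Sdhaf4 gave 22.2, 27.5 and 30.8 CPM, also below all spleen libraries (-0.55, adjusted p = 0.0325), a call lost when any 1 mouse was left out. Sdhaf2, needed to attach the flavin to Sdha, gave 70.9, 88.1 and 126 CPM in skin and 136, 173 and 187 CPM in spleen (-0.86, SE 0.13, adjusted p = 4.66e-08), and was lower in lungs (-0.50, adjusted p = 0.00257) and VAT (-0.36, adjusted p = 0.0269) as well. Sdhaf1, an iron-sulphur insertion factor, gave 16.6, 26.9 and 43.9 CPM in skin and 41.4, 48.6 and 63.3 CPM in spleen (-0.92, adjusted p = 4.95e-06). Sdhaf1 shares 68.9% of its 58-base windows with an overlapping antisense gene, so its reads may include those of the other strand.

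Complexes III to V held genes that moved in both directions. In complex III, Uqcrfs1, the Rieske iron-sulphur protein, was higher in all 10 skin libraries (176, 232 and 309 CPM) than in any spleen library (132, 152 and 174 CPM). Its log2 difference was 0.64 (SE 0.10, adjusted p = 2.36e-07), and 0.44 (adjusted p = 3.34e-05) for Uqcrfs1 with total counts as a covariate. Uqcrc1, a core scaffold protein of the same complex, was lower in skin in 10 of 10 pairs, with 257, 308 and 359 CPM against 346, 393 and 417 CPM (-0.30, SE 0.07, adjusted p = 0.000146). Members of 1 complex thus differed in opposite directions, and the median over the 8 complex III genes was -0.08 (2 higher, 2 lower).

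In complex IV, 6 of 17 tested genes were higher in skin and 1 was lower (median 0.19), and 2 of the 6, Cox4i2 and Ndufa4l2, were near 0 in most libraries. Cox6a1, the widely used form of subunit 6a, gave 161, 184 and 237 CPM against 125, 145 and 170 CPM in spleen, with overlap (0.42, SE 0.11, adjusted p = 0.000827). Cox4i1, an early-assembling subunit, gave 218, 257 and 341 CPM against 197, 218 and 247 CPM (0.30, SE 0.09, adjusted p = 0.0041). Cox5a (0.27, adjusted p = 0.0375) and Cox8a (0.26, adjusted p = 0.0216) were also called. None of these 4 was called with total counts as a covariate, where Cox6a1 stood at 0.14 (adjusted p = 0.121), Cox8a at 0.10 (0.403), Cox5a at 0.08 (0.546) and Cox4i1 at 0.06 (0.450). The lower one was Cox7a2l (-0.23, adjusted p = 0.0239). In complex V, 4 of 16 genes were higher, about the share of all genes, and none lower (median 0.03). Atp5d, the delta subunit of the central stalk, gave 302, 334 and 392 CPM in skin and 221, 247 and 293 CPM in spleen without overlap (0.44, SE 0.08, adjusted p = 3.28e-06), and Atp5b gave 741, 893 and 1038 CPM against 667, 693 and 767 CPM (0.34, SE 0.07, adjusted p = 4.05e-05). Both stayed called with total counts as a covariate, at 0.28 for Atp5d (adjusted p = 0.000344) and 0.14 for Atp5b (adjusted p = 0.0021). For Atp5a1, the partner of Atp5b in the catalytic head, the difference was not called (636, 699 and 845 CPM against 599, 664 and 726 CPM; 0.09, SE 0.06, adjusted p = 0.165). Atp5s, the coupling factor kept apart from the subunits, was lower in skin (-0.90, adjusted p = 0.00646), VAT (-1.07, adjusted p = 0.00406) and lungs (-0.96, adjusted p = 0.0143). The VAT and lung calls for Atp5s were lost without mouse FK7700 (adjusted p = 0.08 and 0.154), and the lung call also without FK7696 (0.056).

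**Figure D2:**
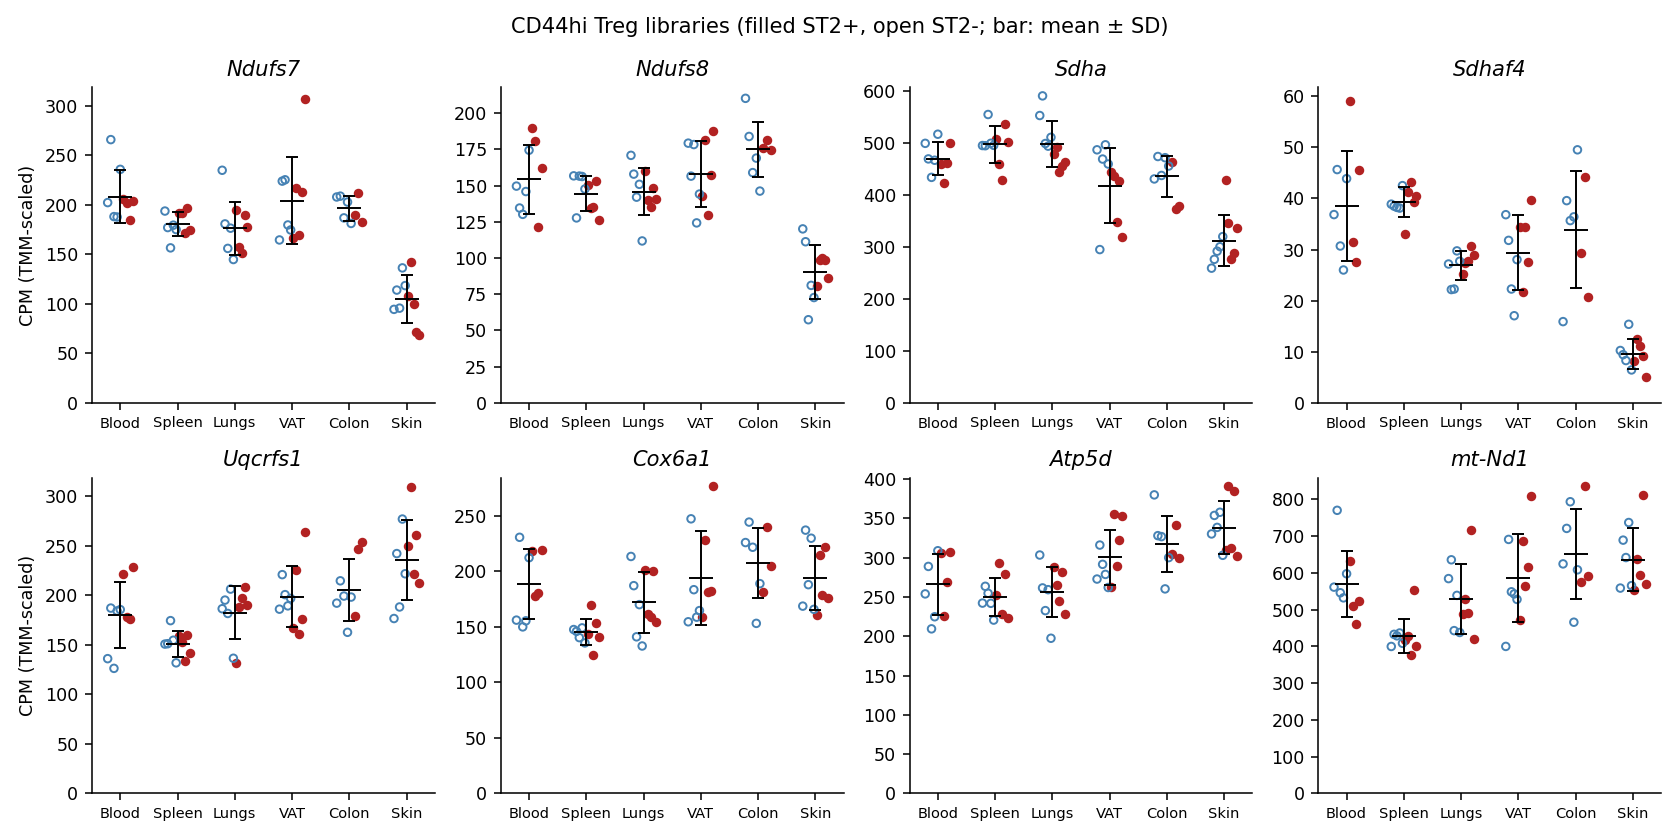
CPM of 8 members in each CD44hi library by tissue, filled points for ST2+ and open points for ST2-, with the mean and SD of each tissue. Ndufs7, Ndufs8, Sdha and Sdhaf4 have their lowest mean in skin; Uqcrfs1, Atp5d and mt-Nd1 lie above spleen there.

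Setting skin against the mean of the 5 other tissues, a comparison added after the data had been seen, weighted spleen less. By it 54 of 94 nuclear members were lower (22.2% of all genes) and 6 were higher (28.8% of all genes), with a median of -0.26. All 52 genes of complexes I and II, assembly factors among them, had a negative difference and 42 were called lower. The lowest adjusted p-values were those of Sdhaf4 (-1.79, adjusted p = 7.37e-14), Ndufs7 (-0.88, adjusted p = 2.76e-13), Sdha (-0.56, adjusted p = 2.53e-12), Ndufs8 (-0.78, adjusted p = 1.17e-11) and Ndufc2 (-0.79, adjusted p = 1.56e-10). Of complexes III to V, 12 were lower and 6 higher. Atp5d (0.29, adjusted p = 3.67e-05) and Uqcrfs1 (0.36, adjusted p = 5.98e-05) were higher by this measure too. Cox6a1, which was called higher than in spleen in 4 tissues, was not called here (0.11, adjusted p = 0.293). Atp5l, a small subunit at the stator, was called (1.02, adjusted p = 0.00611) at a level of 6.82 to 23.4 CPM in skin, where 83.6% of its windows are shared with other transcripts.

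**Figure D3:**
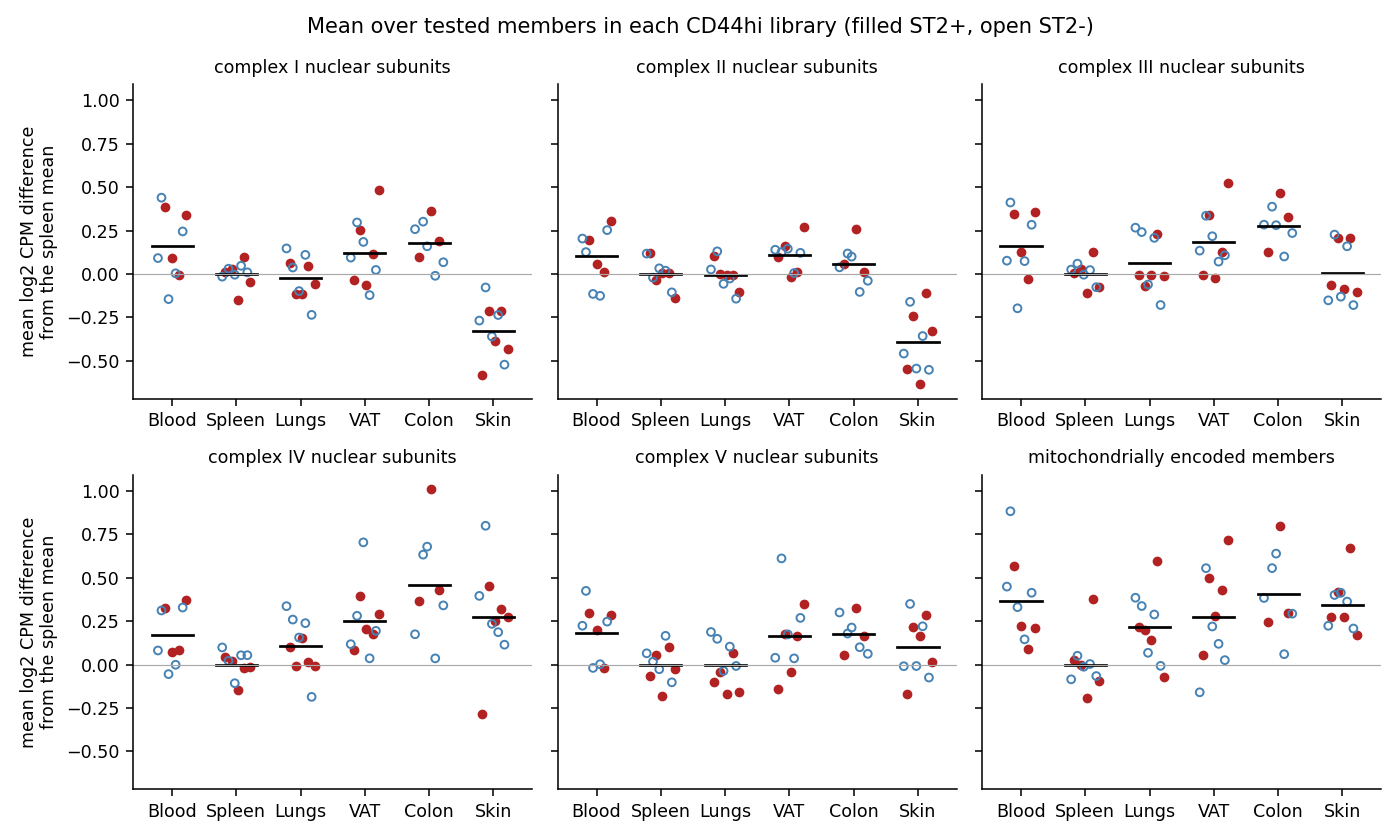
Mean log2 CPM difference of each CD44hi library from the spleen mean, by complex and tissue, with filled points for ST2+, open points for ST2- and a line at the tissue mean. All 10 skin libraries lie below 0 for complexes I (-0.58 to -0.08) and II (-0.64 to -0.11) and above 0 for mitochondrially encoded genes (0.17 to 0.67).

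In colon most calls went in the other direction. There 27 of 94 nuclear members were higher (18.1% of all tested genes) and 1, Sdha, was lower (6.85% of all), with a median of 0.21 against 0.03 for all genes. Complex IV gave 11 of the 27, Cox4i2 and Ndufa4l2 among them, and complex III 5 of its 8 genes. Cox6a1 gave 153, 213 and 245 CPM in the 8 colon libraries against 125, 145 and 170 CPM in spleen (0.52, SE 0.11, adjusted p = 0.000389). Cox7a2, the widely used form of subunit 7a, lay above all spleen libraries with 98.6, 121 and 142 CPM against 74.1, 88.7 and 94.5 CPM (0.48, SE 0.12, adjusted p = 0.00206). Uqcrfs1 (0.47, adjusted p = 0.000589), Cox8a (0.44, adjusted p = 0.00096), Atp5b (0.31, adjusted p = 0.00105) and Atp5d (0.34, adjusted p = 0.00114) were the others with the lowest p-values. The count rested on few mice: without FK7698 it was 4, and without FK7697 it was 18. With total counts as a covariate no nuclear member was called higher in colon (12.6% of all genes were), and the median was 0.05. It was 3 without the libraries with more than 500 CPM of fibroblast and endothelial markers, which are 3 from colon (1201, 963 and 945 CPM) and 1 from skin (759 CPM), and which leave 1 colon ST2+ library. Over those 94 genes the median was then 0.13. Other markers called higher in colon were 9 of 10 fibroblast and endothelial, 9 of 10 myeloid (summed to 32.4 to 1592 CPM, against 2.27 to 26.5 CPM in spleen), 3 of 4 B cell and 6 of 12 epithelial genes. The part of such cells in the colon counts was not tested otherwise.

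In VAT, 20 nuclear members were higher (12.5% of all tested genes) and 5 were lower (9.53% of all). Uqcrfs1 gave 160, 193 and 264 CPM (0.40, SE 0.10, adjusted p = 0.00225), Ndufa1 86.6, 107 and 159 CPM (0.45, adjusted p = 0.0025) and Cox6a1 155, 182 and 277 CPM (0.41, adjusted p = 0.00281), each in ranges that overlapped spleen. Of the 20, 7 belong to complex IV and 6 to complex V. The lower genes were Sdha, Sdhaf1, Sdhaf2, Ndufaf1 and Atp5s. The count of higher genes was 5 without mouse FK7697 or without FK7700, and that of lower genes was 2 without FK7700 and 3 without FK7699. These counts were 10 and 4 with total counts as a covariate. In VAT 7 of 10 myeloid markers (12.3 to 446 CPM in sum), 4 of 10 fibroblast and endothelial and 2 of 4 B cell markers were called higher, and their part was not tested.

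Blood and lungs lay closer to spleen. In blood 9 nuclear members were higher (5.62% of all tested genes) and 1 was lower (5.86% of all), of which 7 were complex I accessory subunits. Ndufa6 gave 106, 121 and 185 CPM in blood against 77.7, 98.9 and 113 CPM in spleen (0.37, adjusted p = 0.0199), and Ndufb11 85.3, 122 and 158 CPM against 81.2, 88.1 and 106 CPM (0.36, adjusted p = 0.0184). These 9 calls rested on few mice, as none were left without FK7697 or without FK7700, 1 without FK7698 and 4 without FK7696, and the lower call, Sdhaf1 (-0.52, adjusted p = 0.0324), was lost without any 1 mouse. None of the nuclear members was called in blood with total counts as a covariate. Ndufs4, a subunit at the base of the NADH-binding arm, and Ndufa7, which the naming rule did not reach, were called higher in blood and lower in skin, as Ndufa7, Ndufs8 and Ndufv3 were called higher in colon and lower in skin. Ndufs4 gave 117, 137 and 177 CPM in blood, 103, 115 and 125 CPM in spleen and 66.3, 94.5 and 103 CPM in skin (0.29, adjusted p = 0.0232, and -0.36, adjusted p = 0.000525). In lungs 1 nuclear member was higher (9.03% of all tested genes), Atp5b with 709, 802 and 1051 CPM (0.25, adjusted p = 0.00852). Another 6 were lower (5.58% of all): Ndufaf1, Ndufaf4, Sdhaf2, Sdhaf4, Atp5s and Atp5g1. Without 1 mouse there were 2 to 4 lower calls, fewest without FK7700, and 0 to 2 higher ones, none without FK7697 or FK7699. With the mouse as a block, 2 were higher.

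The mitochondrially encoded genes had their low point in spleen. For all 8 tested members the spleen mean was the lowest of the 6 tissue means, which held for 16.6% of all tested genes. Relative to spleen 6 of 8 were higher in blood (5.62% of all tested genes), 6 in colon (18.1%), 5 in skin (25.9%), 3 in VAT (12.5%) and 2 in lungs (9.03%), and none was lower. Spleen libraries also had the highest mean total, and with total counts as a covariate the counts were 4 in blood, 3 in colon, 2 in skin, 3 in VAT and 1 in lungs. mt-Nd1, a complex I core subunit, gave 378, 422 and 552 CPM in spleen, 554, 617 and 812 in skin, 466, 616 and 835 in colon, 400, 556 and 810 in VAT, 461, 546 and 770 in blood and 420, 510 and 716 in lungs. Skin lay wholly above spleen, and the other 4 tissues overlapped it. The log2 differences of mt-Nd1 were 0.61 in colon (adjusted p = 1.64e-05), 0.57 in skin (4.8e-06), 0.45 in VAT (0.00076), 0.40 in blood (0.00662) and 0.30 in lungs (0.0347). Those of mt-Nd1 with total counts as a covariate were 0.28 in colon (adjusted p = 0.000244) and 0.27 in skin (3.7e-05), and the lung call was lost (0.11, adjusted p = 0.170). In skin the nuclear core subunits of complex I were thus lower while mt-Nd1, a subunit of the same complex, was higher.

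mt-Co1, the catalytic subunit of complex IV, gave 416, 484 and 613 CPM in spleen and 564, 667 and 896 CPM in skin (0.51, adjusted p = 2.74e-05), and was called in colon (0.50, adjusted p = 0.000271), lungs (0.32, adjusted p = 0.0212) and VAT (0.30, adjusted p = 0.0214). mt-Cytb, of complex III, gave 558, 622 and 804 CPM in spleen and 709, 773 and 1010 CPM in skin (0.35, adjusted p = 0.00139). mt-Nd2 (0.33, adjusted p = 0.0125) and mt-Nd4 (0.34, adjusted p = 0.00297) were higher in skin as well, whereas mt-Nd5 (0.17, adjusted p = 0.0773) and mt-Nd6 (0.09, adjusted p = 0.554), the 1 gene of this set on the other DNA strand, were not called there. In skin mt-Co1 stayed called with total counts as a covariate (0.19, adjusted p = 5.6e-05), and mt-Cytb (0.08, adjusted p = 0.188), mt-Nd2 (0.09, 0.444) and mt-Nd4 (0.08, 0.307) did not. mt-Nd6 was called in blood alone, with 131, 169 and 283 CPM against 115, 124 and 171 CPM in spleen (0.46, adjusted p = 0.00748; with total counts as a covariate 0.29, adjusted p = 0.0715), and mt-Nd3, at 0.706 to 2.27 CPM in spleen, in no tissue. Without 1 mouse the counts of higher mitochondrial members were 1 to 7 in blood and in colon, 1 to 5 in VAT and 0 to 2 in lungs. They were lowest without FK7697 in blood, without FK7697 or FK7698 in VAT and without FK7698 in colon, and none was left in lungs without FK7696, FK7697 or FK7699.

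Between ST2+ and ST2- CD44hi Tregs of 1 tissue no member, nuclear or mitochondrial, was called by the main edgeR fit in any of the 6 tissues. Of all tested genes, 4.44% were called in blood, 3.56% in VAT, 0.896% in lungs, 0.326% in spleen, 0.213% in skin and 0.0683% in colon. At an unadjusted p below 0.05 the nuclear counts were 7 of 94 in VAT (7.45%, against 17.7% of all tested genes), 5 in lungs (5.32% against 10.03%), 4 in blood (4.26% against 18.8%), 3 in skin (3.19% against 8.46%) and 0 in both spleen and colon (5.16% and 5.04% of all). The medians over nuclear members lay between -0.05 (skin) and 0.06 (blood and colon) on the log2 scale. The nearest to a call was Cox7c, a small complex IV subunit, in blood. It measured 15.4, 4.67, 19.8 and 15.4 CPM in the ST2+ libraries and 29.8, 45, 22.9, 15.8 and 32.2 CPM in the ST2- libraries, lower in 3 of 4 pairs (-1.07, SE 0.35, adjusted p = 0.0596). DESeq2 (adjusted p = 0.0113) and the edgeR fit with the mouse as a block (adjusted p = 0.0335) called it. So did edgeR with the filter of 1 CPM in 50% of libraries (adjusted p = 0.0438) and with all 70 libraries (adjusted p = 0.0333). Uqcrfs1 was called in blood with total counts as a covariate (0.39, adjusted p = 0.0394). Ndufa4, a complex IV subunit that was first taken for one of complex I, measured 113, 119, 74.9, 107 and 116 CPM in VAT ST2+ and 134, 177, 139, 116 and 133 CPM in VAT ST2- Tregs. It was lower in 5 of 5 pairs (-0.40, SE 0.14, adjusted p = 0.0903), and was called with total counts as a covariate (-0.39, adjusted p = 0.0414). Cox7c, Uqcrfs1 here, and Ndufaf3 and Ndufa10 below, were named after their values were seen.

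The mitochondrial members had differences of opposite sign in 2 tissues, which did not pass the test. These are the tissues with the small sorts, 4 of 5 in VAT ST2- and 2 of 4 in blood ST2+. In VAT all 8 were higher in ST2+ (median 0.28), with mt-Nd5 at 484, 696, 613, 697 and 775 CPM against 445, 616, 565, 484 and 503 CPM, the ranges overlapping (0.32, SE 0.12, adjusted p = 0.109). With total counts as a covariate mt-Nd5 (0.32, adjusted p = 0.0279), mt-Nd4 (0.27, 0.0407) and mt-Nd1 (0.22, 0.0498) were called in VAT, whereas none was when the count of sorted cells took its place. In blood all 8 were lower (median -0.20). The interaction of tissue and ST2, the test of whether the ST2 difference varies among tissues, called no member (1.43% of all tested genes were called). Ndufaf3 alone had an unadjusted p below 0.05 there, DESeq2 called no member, and voom called Ndufaf3 and Cox7a1. Ndufaf3, a complex I assembly factor, measured 38.4, 35.8, 36.5, 42.6 and 46.3 CPM in skin ST2+ and 54.3, 10.8, 21, 19.6 and 15.2 CPM in skin ST2- Tregs, where the library of mouse FK7696 gave the 54.3 and the other 4 lay below every ST2+ library (0.70, SE 0.25, adjusted p = 0.345). Without FK7696 Ndufaf3 was called in skin (1.27, SE 0.25, adjusted p = 0.00964) and in the interaction (adjusted p = 0.0262), and Ndufa10, a complex I accessory subunit, was called in VAT (0.48, adjusted p = 0.0274). In VAT voom called Cox6a2, the heart and muscle form of subunit 6a, which rested on 2 ST2- libraries (15.5 and 14.3 CPM) with the other 8 VAT libraries at 0.

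**Figure D4:**
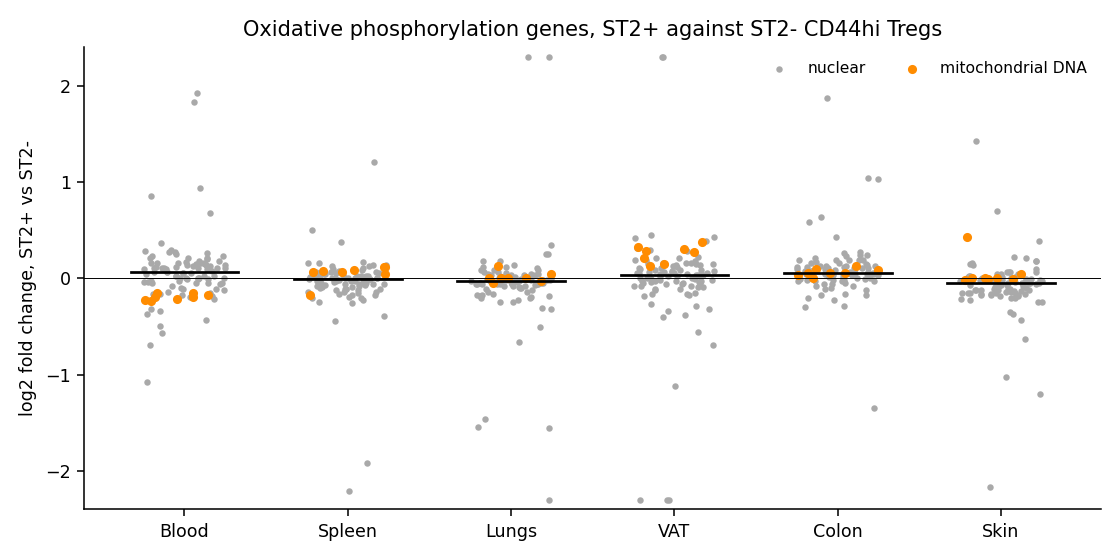
Log2 difference between ST2+ and ST2- CD44hi Tregs of each tested member in the 6 tissues, grey for nuclear and orange for mitochondrially encoded genes, with a line at the nuclear median and values beyond 2.3 drawn at the edge. The nuclear medians lie between -0.05 and 0.06; the 8 mitochondrial genes lie above 0 in VAT and below 0 in blood.

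CD44hi and CD44lo CD62L+ Tregs, both ST2-, gave few calls among these genes. In spleen no member was called (5.47% of all genes), with 3 nuclear members (3.19%) at an unadjusted p below 0.05 against 15.4% of all tested genes, 0 called by DESeq2 and 4 by voom. In lungs 1 was called lower (6.11% of all genes). That was Sdhaf1, at 28.5, 32, 33.8, 48 and 31.2 CPM in CD44hi and 55.5, 60.7, 65.6, 81.9 and 63 CPM in CD44lo Tregs, with no overlap and 5 of 5 pairs lower (-0.91, SE 0.23, adjusted p = 0.00701). Without mouse FK7700 it was not called (adjusted p = 0.052), and Cox7a1 was (adjusted p = 0.0393). Among CD44lo CD62L+ Tregs, lungs and spleen differed in 2 members (3.6% of all genes). Ndufaf1 measured 29.8, 7.03, 24.8, 37.3 and 28.7 CPM in lungs, wholly below 61.6, 80.2, 70.5, 70.8 and 55.1 CPM in spleen (-1.40, SE 0.35, adjusted p = 0.00879). Sdhaf2 measured 119, 80.3, 71.2, 97.7 and 100 CPM against 108, 150, 144, 150 and 160 CPM, lower in 4 of 5 pairs (-0.60, SE 0.18, adjusted p = 0.0346). These 2 assembly factors were also lower in CD44hi Tregs of lungs than of spleen. Those are other libraries, but they come from the same mice and organs and stood in the same fit, so the 2 comparisons are not independent. Leaving out 1 mouse left 0 to 2 of the CD44lo calls, and neither held without FK7697 or without FK7698.

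Several subunits have a second form that is used in muscle, testis or low oxygen. The widely used forms carried nearly all counts. Cox4i2, a lung and hypoxia form of subunit 4, had counts in 18 of 67 libraries and reached 10.8 CPM in 1 skin ST2- library. Ndufa4l2, a hypoxia-induced relative of Ndufa4, had counts in 11 libraries, the highest being 50.6 CPM in skin ST2- of mouse FK7697, 22.3 CPM in VAT ST2- of FK7698 and 21.7 CPM in skin ST2+ of FK7698, and was at 0 in all spleen and blood libraries. Both were called higher in skin and in colon by edgeR but rest on a few libraries, and DESeq2 did not call Ndufa4l2 in skin (adjusted p = 0.256). The 3 libraries just named held 127, 165 and 104 CPM of fibroblast and endothelial markers, and the part of such cells in these counts was not tested. Cox6a2 had counts in 8 libraries, Cox6b2, a testis form, in 39, and Cox7a1, the muscle form of subunit 7a, in 43, with highest values of 15.5, 29.4 and 27.3 CPM.

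Partner genes outside the symbol rule were counted from fixed lists, to be read against the 24.6% of all tested genes called lower and the 25.9% called higher in skin. In skin against spleen, 10 of 22 tested assembly factors of complexes III and IV were lower and 3 higher, among them Cox15, which makes heme A (-1.79, 8.09 to 36.2 CPM against 65.9 to 99.6 CPM), and Surf1 (-1.06). Of 17 electron carriers and partners, mostly ubiquinone synthesis, 8 were lower and 3 higher; Coq9 was lower (-1.19) and Coq10b higher (2.24). Of 28 genes that copy and express mitochondrial DNA, 15 were lower and 3 higher, Fastkd2 being lower (-1.76) and Polg2 higher (1.49). Of 23 genes of the tricarboxylic acid cycle and pyruvate dehydrogenase, 10 were lower and 2 higher, with Suclg1 at -0.89 and Pdp1 at 1.88.

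The other lists held calls in both directions in skin. Of 21 nuclear regulators of mitochondrial biogenesis 10 were higher and 3 lower, among them Gabpb1 (1.69), a partner of an ETS factor that acts on such promoters. Of 13 carriers of nucleotides, phosphate and protons 5 were higher and 2 lower. Slc25a3, the phosphate carrier that supplies ATP synthase, gave 811 to 1146 CPM in skin and 346 to 445 CPM in spleen (1.44). Of 24 genes of inner membrane structure and import 6 were higher and 11 lower, of 10 of oxidant defence 4 and 6, and of 18 of proliferation 3 and 4, with medians of -0.24, -0.37 and -0.25.

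Some measures moved with tissue alongside these genes, and their part in the results was not tested. The 12 genes of a dissociation stress list summed to 4591 to 6534 CPM in skin, 4083 to 7134 in colon, 1928 to 6756 in VAT, 2344 to 3854 in lungs, 1110 to 2377 in spleen and 1024 to 1871 in blood, and 11 of 12 were called higher in skin and 10 in colon. Other cells' markers called higher in skin were 8 of 10 fibroblast and endothelial, 4 of 12 epithelial, 5 of 10 myeloid, 2 of 3 adipocyte, 1 of 5 striated muscle, 0 of 4 B cell, 0 of 3 CD8 T and NK cell and 0 of 4 erythroid genes; striated muscle markers summed to 5.01 to 29 CPM in skin and 9.53 to 19.1 CPM in spleen. In blood 3 of 4 erythroid genes were called higher. Over the 94 nuclear members, transcript length and the log2 difference had a negative Spearman rho in all 5 tissues. It was -0.485 in colon, -0.484 in blood, -0.446 in skin, -0.429 in VAT and -0.283 in lungs. Over all genes it was -0.009 to 0.153 in the 5 tissues, a description across genes that share libraries.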

How the data were processed

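RNA was made into full-length cDNA with the SMART-Seq v4 kit and into Nextera XT libraries, which carry no strand mark and no molecular identifiers, and was sequenced as single 58-base reads. The deposited values are raw gene counts. Per the study's methods the authors trimmed reads, aligned them with STAR to GRCm38 with Ensembl annotation (the text also names GRCh38) and counted with HTSeq-count; the labels list CASAVA 1.8.2 and HTSeq 0.4.1. The mode for reads with several matches is not given in the sources used here. Intervals and p-values cover the spread between libraries of 5 mice.

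As in the study, libraries with 1000000 counts or fewer were left out (3 of 70: blood ST2+ of FK7696 with 488666 counts, colon ST2+ of FK7697 with 3582 and of FK7700 with 62333), and 13173 protein-coding genes were tested, those that reached 1 CPM in 10% or more of the libraries. CPM are scaled by TMM factors. The main test was edgeR's quasi-likelihood F test on the deposited counts, with all 14 groups in 1 fit and Benjamini-Hochberg adjustment over all tested genes (edgeR 4.0.16, limma 3.58.1, DESeq2 1.42.0, R 4.3.3; Python 3.11.15, pandas 2.3.3, scipy 1.17.1). The fit was also run on simulated counts with 1 spread for all genes, no mouse effect and changes of 2-fold or more. Most called differences here are smaller, so that run does not vouch for them. Per-complex library values are means of log2 CPM with a prior count of 2. Named genes were all mitochondrial members, up to 5 called nuclear members with the smallest adjusted p per comparison and direction, a fixed set of central subunits and isoforms, and up to 3 genes of each other list; 1 of them is not reported here. The members and lists were chosen with earlier results of these data known.

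Libraries of 1 mouse carry its number, so numbers pair samples by animal. Deviations from group means over 9208 genes had a mean r of 0.0825 in 27 same-mouse pairs (lowest 0.00935, 9 over 0.1) and of -0.0198 in 108 other pairs. No pair of libraries was identical. Alternatives were DESeq2, voom with quality weights, RLE factors, nuclear library sizes, other filters, a fold minimum of 1.5, all 70 libraries, sorted cells as a covariate, the mouse as a block and leaving out each mouse, and, chosen after seeing the data, leaving out libraries with many fibroblast and endothelial counts and taking the log2 total counts as a covariate.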

Additional observations from a re-analysis of the deposited data

Results flagged for a closer look

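Of 156 groups of values looked at (12 measures in 13 groups of 4 or 5 libraries), 14 held a library far from the rest of its group by Dixon's criterion, and chance flags about 1 in 20 groups. In lungs the outlying values were Uqcrfs1 at 132 CPM (ST2+, mouse FK7696), Atp5a1 at 813 CPM (ST2+, FK7699), Cox4i1 at 299 CPM (CD44lo CD62L+, FK7699) and 1.36% of counts in nuclear members (CD44lo CD62L+). In VAT they were Sdha at 295 CPM and Cox5a at 128 CPM, both in the ST2- library of FK7697, and Uqcrc1 at 296 CPM (ST2+, FK7698). In skin they were Ndufs1 at 84.6 CPM (ST2-, FK7699) and 0.391% of counts in mitochondrially encoded members (ST2+). In blood they were Ndufs1 at 124 CPM (ST2+, FK7698) and 0.492% of counts in mitochondrially encoded members (ST2-). In spleen they were Ndufv1 at 233 CPM (ST2-, FK7696), Sdha at 555 CPM (ST2-, FK7698) and 1.2% of counts in nuclear members (ST2-).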

How the results depend on the processing

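No called value of a named gene changed sign. The count of 39 nuclear members lower in skin stayed within 1.5 times under every alternative run other than the fold minimum. With a fold of at least 1.5, skin had 19 lower, 3 higher and 0 mitochondrial calls, colon 3, 0 and 1 (higher, lower, mitochondrial), and blood, lungs and VAT 0 higher and 0 mitochondrial, with 0, 3 and 3 lower; skin against the other tissues had 3 higher, 17 lower and 0 mitochondrial. With all 70 libraries the counts were 1 for ST2 in blood, 0 lower in blood, 3 lower and 0 higher in lungs, 7 higher and 3 lower in VAT, 0 lower in colon, 6 higher in skin, 0 in CD44lo lungs, and mitochondrial 0 in lungs, 1 in VAT, 2 in skin and 0 against the other tissues. DESeq2 and the filter of 1 CPM in 50% of libraries each gave 1 for ST2 in blood and 2 higher in lungs. With voom there were 1 for ST2 in VAT, 4 for CD44 in spleen, 2 lower in blood, 12 lower and 4 higher in lungs, 2 lower in colon, 7 in CD44lo lungs and 2 for the interaction. RLE factors left 1 mitochondrial call in lungs and 0 lower in colon. Without a filter there were 4 higher and 0 lower in blood, 3 lower in lungs and 1 in CD44lo lungs. The covariate of sorted cells left 5 higher in blood. The cause was not tested in these cases.

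With the mouse as a replicate block there were 1 call for ST2 in blood and 2 higher in lungs, and the block changed no other count beyond 1.5 times. Without libraries rich in fibroblast and endothelial markers (over 500 CPM), colon had 3 higher, 0 lower and 2 mitochondrial calls and CD44lo lungs 1; with the limit of 100 CPM outside colon, VAT had 3 lower, the mitochondrial count of skin against the other tissues was 0 and the nuclear median for ST2 in skin turned from -0.05 to 0.060.

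The covariate of total counts, chosen after seeing the data, changed the most. It gave 0 higher and 0 lower in blood, 10 higher in VAT, 0 higher in colon and 4 higher in skin, mitochondrial counts of 1 in lungs, 3 in colon and 2 in skin, 1 mitochondrial member lower in skin against the other tissues, 1 nuclear call for ST2 in blood (Uqcrfs1) and 1 nuclear and 3 mitochondrial calls for ST2 in VAT. The nuclear medians became -0.30 in skin, 0.048 in colon and -0.074 in lungs, the last from 0.02. Depth and tissue are partly tied, so their parts cannot be told apart fully.

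Leaving out 1 mouse gave ranges of 0 to 13 higher and 0 lower in blood, 0 to 2 and 2 to 4 in lungs, 5 to 22 and 2 to 4 in VAT, 4 to 26 and 0 to 1 in colon, 9 to 13 and 30 to 36 in skin, and 36 to 55 lower in skin against the other tissues. Any difference among tissues gave 48 to 77, the CD44lo comparison 0 to 2, and ST2 in skin, ST2 in VAT and the interaction 0 to 1 each. Mitochondrial counts were 1 to 7 in blood, 0 to 2 in lungs, 1 to 5 in VAT, 1 to 7 in colon, 0 to 2 in skin against the other tissues and 3 to 7 for any tissue. Of 864 alternative values for single named genes, 754 kept their call and 110 lost it.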
